A study of Mus musculus with 20 samples.

Results

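Kap1 peaks of young and of old mouse liver were compared over chromosomes 1 to 19. The members are all peaks of the 2 deposited Kap1 peak lists that lie on these chromosomes, 47084 of 48915 peaks in young and 21390 of 22141 in old liver, from a series of 6 such lists with 175329 peaks in all. Chromatin came from livers of wild-type C57BL/6 mice aged 3 months (young) or 21 months (old), and Kap1 was immunoprecipitated from 2 livers per age and sequenced (ChIP-Seq). The study was about histone marks in aging liver, among them regions that carry both H3K9me3 and H3K14ac, and mapped Kap1 and its partner Setdb1 in relation to these. The livers of an age were merged before peak calling, so each age is represented by 1 list with no spread between livers. Age, library and sequencing depth therefore cannot be told apart. All intervals below are 95% intervals for counting error only, no test between ages was possible, and the depth behind a single peak is unknown. The intervals treat each peak as independent, although peaks were clustered. The variance of the peak number per 1 Mb bin was 46.0 times its mean in young and 34.2 times in old liver. They are therefore too narrow for clustered peaks.

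Kap1 is the product of the gene Trim28. It does not bind DNA by itself: KRAB zinc finger proteins, the largest family of C2H2 zinc finger factors in mammals, bring it to their target sequences, where it recruits the H3K9 methyltransferase Setdb1 and heterochromatin proteins. Its best known targets are endogenous retroviruses and the genes of the zinc finger proteins themselves, at whose 3′ exons it was found in cultured cells. These exons encode rows of zinc fingers joined by a short linker peptide, so that their sequence is repeated within a gene and between neighboring genes.

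Peaks of both ages overlapped in the last exons of several zinc finger genes. The examples below are peaks that lie wholly in the coding part of such an exon, and are shown because a peak of the other age covers part of them. Their genes were chosen by finger patterns alone, whether or not they encode a KRAB domain. They are written 5′ to 3′ on the strand of the gene, from the GRCm38 (mm10) reference, with the bases that lay in peaks of both ages in capitals.
Zfp985, old peak, chr4:147583886-147584035, plus strand: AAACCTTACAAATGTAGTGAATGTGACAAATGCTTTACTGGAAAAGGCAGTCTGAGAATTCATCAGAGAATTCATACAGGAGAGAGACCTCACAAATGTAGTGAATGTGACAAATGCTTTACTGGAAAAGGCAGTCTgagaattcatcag
2010315B03Rik, old peak, chr9:124293943-124294092, minus strand: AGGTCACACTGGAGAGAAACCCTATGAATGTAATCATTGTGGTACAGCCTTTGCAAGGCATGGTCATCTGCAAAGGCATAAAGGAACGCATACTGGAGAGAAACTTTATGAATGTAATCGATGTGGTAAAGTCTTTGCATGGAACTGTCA
Sall2, young peak, chr14:52312931-52313080, minus strand: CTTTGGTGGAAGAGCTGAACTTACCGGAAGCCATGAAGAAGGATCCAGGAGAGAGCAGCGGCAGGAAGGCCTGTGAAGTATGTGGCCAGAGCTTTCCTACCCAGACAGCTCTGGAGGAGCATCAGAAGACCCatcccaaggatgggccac
Fiz1, old peak, chr7:5008415-5008564, minus strand: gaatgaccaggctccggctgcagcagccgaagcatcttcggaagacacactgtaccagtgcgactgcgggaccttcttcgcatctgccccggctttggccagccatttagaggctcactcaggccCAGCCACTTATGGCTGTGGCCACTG

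Only few Kap1 peaks lay in such exons, 79 young and 43 old ones, whereas the 1 Mb bins with the most peaks are rich in sequence that recurs on chromosomes 1 to 19. The next 4 peaks are from 4 of the 1 Mb bins with the most Kap1 peaks, and each was chosen because its middle 32 bases recur most often among the young peaks of 150 bp in that bin that lie outside exons and meet an old peak of 150 bp. They are given on the plus strand of GRCm38, again with the bases shared by both ages in capitals.
Ppp2r3d intron, young peak, chr9:124462357-124462506, middle 32 bases found 24 times on chromosomes 1 to 19: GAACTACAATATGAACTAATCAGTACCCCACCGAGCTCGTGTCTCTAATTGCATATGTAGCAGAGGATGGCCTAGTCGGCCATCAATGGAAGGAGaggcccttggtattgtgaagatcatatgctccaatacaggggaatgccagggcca
Between genes, young peak, chr12:19433649-19433798, found 9441 times: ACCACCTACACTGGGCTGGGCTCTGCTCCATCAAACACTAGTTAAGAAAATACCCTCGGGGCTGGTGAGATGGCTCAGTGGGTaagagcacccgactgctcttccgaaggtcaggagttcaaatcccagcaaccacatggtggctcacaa
Between genes, young peak, chr7:15804494-15804643, found 34 times: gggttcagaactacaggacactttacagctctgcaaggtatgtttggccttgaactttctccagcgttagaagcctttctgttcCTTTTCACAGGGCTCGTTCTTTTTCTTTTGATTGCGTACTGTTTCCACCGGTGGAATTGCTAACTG
Between genes, young peak, chr4:147819579-147819728, found 11 times: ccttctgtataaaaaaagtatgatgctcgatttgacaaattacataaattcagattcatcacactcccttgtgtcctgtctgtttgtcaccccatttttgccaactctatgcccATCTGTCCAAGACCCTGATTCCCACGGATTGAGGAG

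*Distribution over the chromosomes.* The old list held 45.4% as many peaks as the young list (interval 44.7% to 46.2%), 8.93 against 19.7 peaks per Mb of sequenced bases. Kap1 peaks were most dense on chromosome 7, which carries 125 of the 627 zinc finger genes counted here, with 34.1 per Mb in young and 15.02 in old liver. They were least dense on chromosome 11 at both ages, with 9.44 and 3.44 per Mb. The old count was 36.4% of the young on chromosome 18 (32.9% to 40.1%) and 36.5% on chromosome 11 (32.5% to 40.9%). On chromosomes 4 and 16 it was 52.7% (49.8% to 55.7% and 48.2% to 57.6%). The intervals of these 2 pairs of chromosomes did not overlap, and the other 15 chromosomes lay between them. These pairs are the extremes of all chromosomes compared, and the intervals make no allowance for that choice or for clustered peaks.

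*Distribution over 1 Mb bins.* Kap1 peaks were strongly clustered. Over 2473 bins of 1 Mb, the median was 11 young and 3 old peaks, whereas the fullest bin held 240 and 220. The densest 5% of bins, 124 per list, held 33.6% of all young peaks (33.2% to 34.1%) and 41.4% of all old peaks (40.8% to 42.1%). Of these bins, 102 were among the densest at both ages, 82.3% of either set. At the other end, 195 bins had no young peak and 509 had no old peak.

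Several of the densest bins carry tandem gene families. Counts for genes are over the whole gene, which may reach beyond the bin. The bin with the most peaks at both ages, chr4:147000001-148000000, overlaps 10 C2H2 zinc finger genes. Zfp985 had 23 young and 21 old peaks between its start and end, Zfp984 had 19 and 18, and Zfp982 had 11 and 9, so the counts of the ages were close in all 3 genes. The end of chromosome 9, chr9:124000001-124595110, held 231 young and 160 old peaks. There the phosphatase subunit gene Ppp2r3d had 33 and 25 peaks and the zinc finger gene 2010315B03Rik 18 and 7. A further bin, chr12:19000001-20000000, held 231 young and 99 old peaks over a single protein-coding gene that had none of them, and the neighboring chr12:18000001-19000000 held 204 and 141. The zinc finger gene 5730507C01Rik in the latter had 3 peaks at each age.

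The distal bin chr18:90000001-90702639 held 221 young and 127 old peaks, of which 12 and 6 lay in Tmx3, a thioredoxin-related protein gene, and 2 at each age in the zinc finger gene Gm45871. In chr7:33000001-34000000, a cluster of secretoglobin genes, 217 young and 85 old peaks were called, of which 5 and 3 lay in protein-coding genes: Scgb2b26 had 2 and 1, Scgb2b21 had 2 and 0, Scgb2b20 had 0 and 1, and further genes of the bin held the rest. The bin chr7:15000001-16000000 held 179 young and 132 old peaks and overlaps 6 of the Obox and Crxos genes, homeobox genes of the oocyte and early embryo. Obox1 had 11 young and 14 old peaks, Crxos had 15 and 8, and Bicra, a chromatin remodeling subunit gene beside them, had 8 and 6. The bin chr6:123000001-124000000, with 157 and 127 peaks, overlaps 7 genes of vomeronasal type 2 receptors, the pheromone receptors of the vomeronasal organ. Vmn2r24 had 15 and 8 peaks, Vmn2r23 had 9 at each age, and the lectin receptor gene Clec4b2 had 12 and 7.

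Sequence that recurs on chromosomes 1 to 19 was common in the densest bins. The count does not tell copies close by from repeats dispersed over the chromosomes. The middle 32 bases of sites placed every 50 kb were found again elsewhere on chromosomes 1 to 19 for 44.4% of 2288 sites in the 124 densest young bins (42.3% to 46.4%) and for 13.9% of 45629 sites in all other bins (13.6% to 14.2%). The peaks themselves were less repetitive than these surroundings. The middle bases recurred for 16.4% of young peaks in the densest bins (15.9% to 17.0%) and for 16.7% of old peaks (15.9% to 17.5%), and in the other bins for 6.87% and 7.85%. The authors kept uniquely aligned reads, and the part of this step and of duplicated sequence in these shares and in the clustering was not tested.

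**Figure D1:**
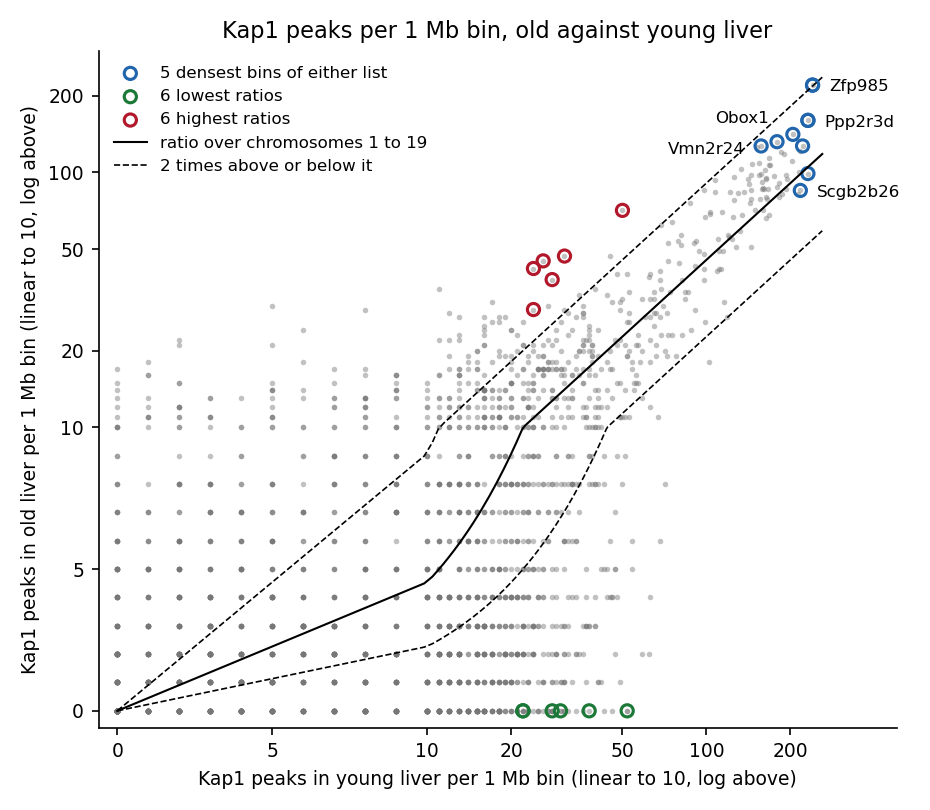
Kap1 peaks per 1 Mb bin of chromosomes 1 to 19 in young (x axis) and old liver (y axis), both axes in peaks per bin, linear up to 10 and logarithmic above. Each grey point is 1 of 2473 bins. Circles mark the densest bins and, among bins with at least 20 young peaks, those with the lowest and highest ratios. Gene names stand for the densest bins. The solid line is the ratio over all bins (45.4%) and the dashed lines are 2 times above and below it. The densest bins lie close to or above the solid line, between 39.2% and 91.7%, and the 6 lowest bins lie at 0 old peaks.

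*Where the old count was lowest and highest relative to the young.* Bins were compared with the ratio of the whole lists (45.4%), which stands for the general difference in peak number. Among 1361 bins with at least 10 young peaks, 573 or 42.1% had a ratio more than 2 times below the overall one and 88 or 6.47% a ratio more than 2 times above it. Bins enter this count through the young list alone, which by itself favors low ratios. Among the 1277 bins with at least 15 peaks of both lists together, a choice made after seeing the data, 408 or 31.9% were more than 2 times below (29.4% to 34.6%) and 175 or 13.7% more than 2 times above the overall ratio (11.9% to 15.7%). In the bins with at least 10 young peaks, the median bin ratio was 28.6%, with quartiles of 10% and 54.4%. The interval of a bin's own ratio lay wholly below the overall ratio in 27.3% of these bins and wholly above it in 8.89%. The ratio did not follow the young count in 1 direction. Old peaks numbered 55.7% of young (54.0% to 57.3%) in the 79 bins with 100 or more young peaks, 42.0% in the 95 bins with 50 to 99, 33.3% (32.2% to 34.4%) in the 492 bins with 20 to 49, 36.2% in the 695 bins with 10 to 19 and 56.2% in the 470 bins with 5 to 9. No bin with 100 or more young peaks and 37 of those with 20 to 49 lacked old peaks. Bins with 1 to 4 young peaks had 119% as many old peaks, and the 195 bins with no young peak had 420 old ones. Because the bins are chosen and classed by the young count itself, the ratios of all these classes partly follow from that choice.

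Of the 666 bins with at least 20 young peaks, 39 had no old peak. The 6 that come first in genome order are named here. The bin chr1:29000001-30000000 held 52 young peaks and no protein-coding gene, and its 0 old peaks give a ratio of 0% with an interval up to 7.35%. The bin chr1:33000001-34000000 held 22 young peaks. Prim2, the large subunit gene of DNA primase, had 8 young peaks and Dst, the cytoskeletal linker gene dystonin, had 6. In chr2:80000001-81000000, with 38 young peaks, Nup35, a nuclear pore gene, had 3 and Pde1a and Nckap1 had 2 each. In chr3:38000001-39000000, with 22, the cadherin gene Fat4 had 4. In chr3:99000001-100000000, with 30, the T-box gene Tbx15 had 4, the mitochondrial tryptophan tRNA synthetase gene Wars2 had 3 and Spag17, which reaches into the next bin, had 6 young and 1 old. In chr3:134000001-135000000, with 28, the neurokinin receptor gene Tacr3 had 4. The same 6 bins each had between 3 and 17 old Setdb1 peaks.

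Among the 666 bins with at least 20 young peaks, the 6 with the highest ratios had more old than young peaks. Some bins with fewer young peaks had higher ratios. In chr17:8000001-9000000, 24 young and 42 old peaks were called, a ratio of 175% (104% to 302%). The phosphodiesterase gene Pde10a had 16 peaks at each age there, T2 had 2 young and 6 old, and Fgfr1op 0 and 2. The gene desert chr6:20000001-21000000 had 26 and 45 peaks and no protein-coding gene. In chr9:36000001-37000000, with 31 and 47, Pknox2, a homeobox gene, had 6 at each age, Fez1 had 2 and 3, and Ei24 had 0 and 2. In chr6:11000001-12000000, with 50 and 71, Phf14 had 3 and 4. The bin chr9:11000001-12000000 had 28 and 38 peaks and no protein-coding gene. In chr2:97000001-98000000, with 24 and 29, the synaptic adhesion gene Lrrc4c had 32 young and 19 old peaks, of which 17 and 15 lay in this bin. Of these 6, only the 2 leading bins had an interval wholly above 100%. Of the 1361 bins with at least 10 young peaks, 64 had more old than young peaks.

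The count of Kap1 peaks stepped at whole Mb positions of the chromosomes. The difference in peak number between the 300 kb before and the 300 kb after a position, summed without sign and divided by the summed peaks, was 0.58 in young and 0.71 in old liver at whole Mb positions. At positions 500 kb past a whole Mb it was 0.31 and 0.37. The other lists of the series stepped there too: the values were 0.64 and 0.44 for young and 0.59 and 0.43 for old H3K14ac peaks, 0.28 and 0.24 for young and 0.50 and 0.41 for old Setdb1 peaks, at whole Mb positions and 500 kb past them. The bin results move with this: with bins that start 500 kb past a whole Mb, 31.5% in place of 42.1% were more than 2 times below the overall ratio, 5.01% in place of 6.47% above it, and 15 in place of 39 bins with at least 20 young peaks had no old one. Among bin starts at every 100 kb, whole Mb positions gave the highest share below the overall ratio and the most bins without an old peak. The other starts gave 31.5% to 38.4% below it, and 10 to 26 bins without an old peak. The choice of bin start therefore changes how many bins stand out, and the cause of the steps was not tested.

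**Figure D2:**
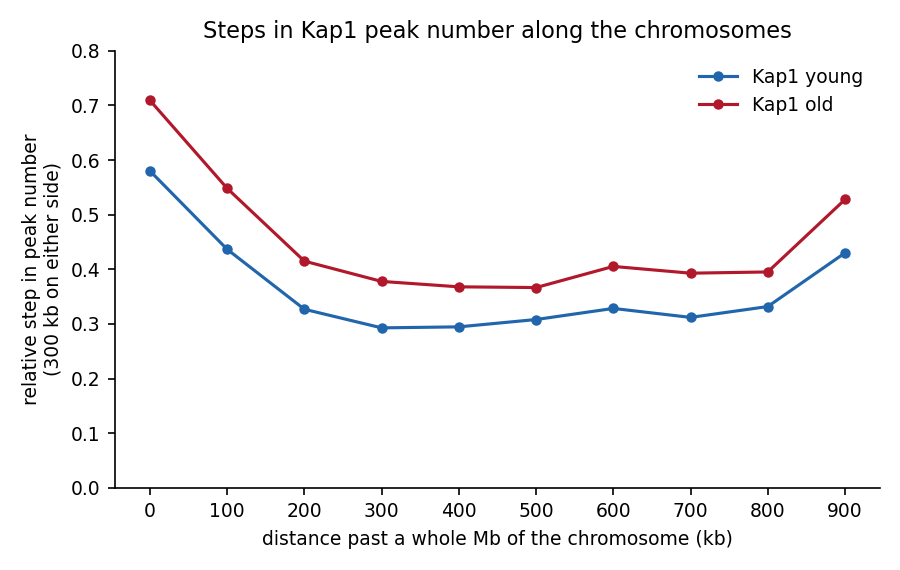
Relative step in Kap1 peak number between the 300 kb on either side of a position (y axis, no unit) against the distance of that position past a whole Mb of the chromosome in kb (x axis), for the young and the old list. Both lines are highest at 0 kb, 0.58 in young and 0.71 in old liver, and lie between 0.29 and 0.41 from 200 to 800 kb.

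*Widths.* The commonest width, 150 bp, was also the narrowest at both ages and was that of 41655 young peaks (88.5%) and 18332 old peaks (85.7%). The wider peaks had a median of 303 bp at the young age and 314 bp at the old. The old count as a percentage of the young was 44.0% for peaks of 150 bp (43.2% to 44.8%), 53.1% for 151 to 300 bp (49.8% to 56.6%), 58.4% for 301 to 500 bp (53.6% to 63.7%), 57.1% for 501 to 1000 bp (51.2% to 63.6%) and 69.0% for peaks over 1000 bp (58.9% to 80.7%). In all, 7.63% of young peaks shared at least 1 bp with an old peak (7.39% to 7.87%) and 17.0% of old peaks with a young one (16.5% to 17.6%). This share varied with width. Of the 150 bp peaks, 3.83% in young and 9.75% in old liver met a peak of the other age, and of those over 1000 bp 81.4% and 90.8% did. A wide peak also offers more bases to meet, and its part in these shares was not tested.

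Of the 6 widest peaks of each list, 4 lay at the same places. The widest young peak spanned 17736 bp, chr1:88252068-88269803, over Mroh2a and Hjurp, which encodes the chaperone of the centromeric histone, and the old list had a peak of 15610 bp at chr1:88254063-88269672. At chr11:3184196-3200070, over Sfi1 and Drg1, the young peak spanned 15875 bp and the old one, chr11:3184206-3200075, 15870 bp. At the Ugt1a locus, whose genes encode the liver enzymes that glucuronidate bilirubin and drugs, the young peak chr1:88211479-88225057 spanned 13579 bp and the old peak chr1:88211464-88225021 spanned 13558 bp. The zinc finger gene Zfp981 lay under a young peak of 12724 bp and an old one of 8144 bp, chr4:146519125-146527268. Wide young peaks of 12017 and 11366 bp lay at Mup5 and beside it, in the cluster of the major urinary proteins that liver secretes, and had no counterpart among the 6 widest old peaks. The other 2 of these old peaks, 10810 and 9837 bp wide, lay over Mroh2a.

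**Figure D3:**
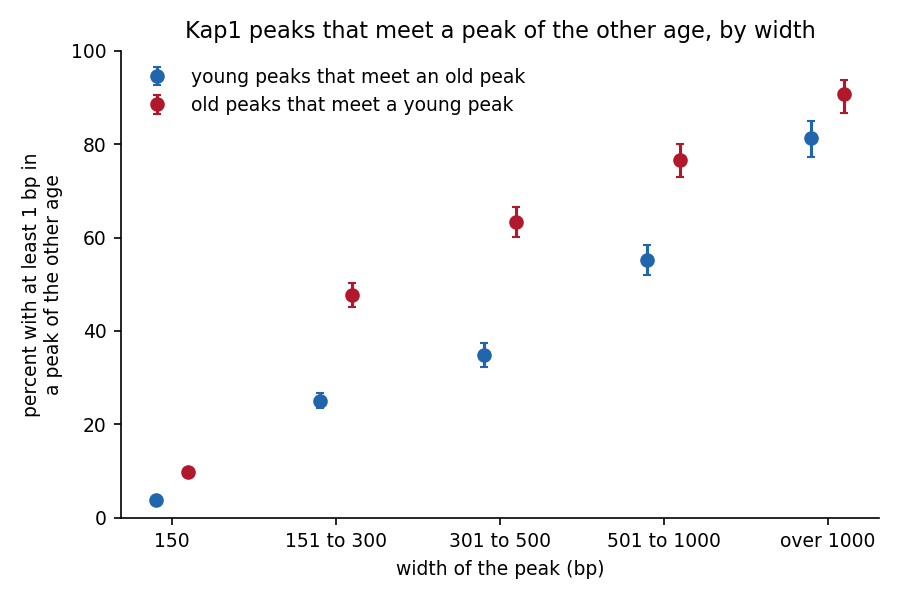
Share of Kap1 peaks that share at least 1 bp with a peak of the other age (y axis, percent) by peak width in bp (x axis), with 95% Wilson intervals that cover counting error only. The share goes from 3.83% to 81.4% of young and from 9.75% to 90.8% of old peaks between the narrowest and the widest class.

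*Gene families.* A gene was counted as reached when the midpoint of a peak lay between its start and end in the GENCODE annotation. Of 20807 protein-coding genes, 27.5% were reached in young and 15.2% in old liver. Protein-coding genes as a whole held 16.0 young and 6.99 old peaks per Mb, fewer than the genome (19.7 and 8.93), and 50.9% of the sequence but 57.6% of young and 58.6% of old peaks lay between annotated genes. Since long genes meet more peaks, families are given per Mb of gene. Each is also set against its surroundings, as the observed number over the number that its own 1 Mb bins would give if their peaks were spread evenly. These bins include the peaks of the family itself. On this measure protein-coding genes held 1.02 times the number of their bins in young and 1.00 times in old liver, and the sequence between genes 0.998 and 1.01 times.

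C2H2 zinc finger genes, here the 627 genes whose protein has at least 3 finger patterns, are the wider family from which the Kap1-recruiting factors come. KRAB domains were not looked for, so KRAB zinc finger genes were not set apart. A peak lay in 212 of them in young (33.8%, 30.2% to 37.6%) and in 136 in old liver (21.7%, 18.6% to 25.1%), and in 96 at both ages. They held 647 young and 361 old peaks, 26.1 and 14.5 per Mb. The old count was 55.8% of the young (48.9% to 63.6%), against 43.8% over all protein-coding genes (42.6% to 45.0%). Their bins gave similar figures: the number of peaks was 0.93 times that of their own bins at both ages, and the ratio in these bins was 55.7%. Zinc finger genes are over-represented in the densest bins, where 144 of them start (23.0%, against 7.07% of all protein-coding genes). In these bins 67.4% were reached in young and 50% in old liver, beside 60.9% and 46.8% of all protein-coding genes there. Elsewhere 23.8% and 13.3% were, beside 25.01% and 12.8% of all protein-coding genes. Zfp950 had the most peaks of the family, 40 young and 24 old over 87.0 kb, followed by Zfp936 with 31 and 21 over 77.9 kb.

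The receptor families of smell and pheromone sensing, which are not known as liver genes, had more peaks per Mb than the genome as well, although not all of them had more than their surroundings. Vomeronasal type 1 receptor genes held 92.2 young and 40.9 old peaks per Mb, with 57 and 42 of 208 genes reached (27.4% and 20.2%, beside 27.5% and 15.2% of all protein-coding genes), and 1.25 and 1.29 times the number of their bins. Vmn1r73 had 17 young and 7 old peaks and Vmn1r68 had 12 and 4. Vomeronasal type 2 receptor genes held 53.9 and 32.6 per Mb, 61 and 49 of 119 genes were reached (51.3% and 41.2%), and the old count was 60.4% of the young (47.7% to 76.2%), as in their bins (61.1%), of whose peaks they held 0.84 and 0.83 times the even number. Vmn2r7 had 14 and 9 peaks, next to the values of Vmn2r24 above. Olfactory receptor genes held 42.7 and 16.7 per Mb, with 237 and 116 of 1128 genes reached (21.0% and 10.3%), fewer than among all protein-coding genes, and 1.10 and 1.07 times the number of their bins. Olfr643 had 11 and 2 peaks and Olfr1275 had 5 and 0. Taste receptor genes had 3 young peaks and 1 old in 38 genes, with 2 young and no old in Tas2r124 and 1 young in Tas2r109.

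The defensin genes, which encode antimicrobial peptides, were the densest family in young liver, with 152 peaks per Mb, and had 69.0 per Mb in old liver, and 16 and 10 of 64 genes were reached (25% and 15.6%), close to the 27.5% and 15.2% of all protein-coding genes. Of these genes, 44 start in the densest bins, and the family held 1.48 and 1.128 times the number of its bins. Defb1 had 8 and 3 peaks and Defb39 had 4 and 1. The 8 Obox and Crxos genes, all in the densest bins, came next in young liver with 124 per Mb and were the densest family in old liver with 97.5, a ratio of 78.4% (46.5% to 131%), but only 0.70 and 0.75 times the number of their bins. Killer cell lectin-like receptor genes held 15 and 7 peaks in 26 genes, of which Klra1 had 3 at each age and Klra7 had 3 and 0.

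Clustered protocadherin genes, the cell-surface genes of neuronal identity, had the lowest ratio of any family with over 20 young peaks. Their overlapping units held 33 distinct young and 3 old peaks (9.09%, 1.78% to 29.0%). Because units share peaks, 44 of 57 genes were reached in young and 14 in old liver (77.2% and 24.6%). Of all protein-coding genes 27.5% and 15.2% were reached. Pcdha1 had 11 and 3 peaks and Pcdha2, which shares most of its length with it, 11 and 2. The ratio in their bins, which include these peaks, was 9.52%. Beside the cluster Hdac3, a deacetylase gene, had 4 young and no old peaks.

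Serine protease inhibitor genes had a lower ratio than their surroundings. They held 66 young and 17 old peaks, a ratio of 25.8% (14.2% to 44.4%), whereas their bins had 45.3%, just outside this interval, which is not adjusted for the 22 families compared. The number was 1.28 times that of their bins in young and 0.73 times in old liver. With 5 kb on either side included, the counts were 85 young and 30 old peaks, a ratio closer to that of the bins. The lower ratio is thus given for the genes between start and end only. Serpinb6a had 15 young and 1 old peak and Serpinb6c had 7 and 2. In imprinted genes, which include known Kap1 targets, 71 young and 21 old peaks gave 29.6% (17.3% to 48.7%), against 42.2% in their bins. The ubiquitin ligase gene Ube3a had 17 young peaks and 1 old, while Snrpn had 16 and 8. Solute carrier genes, with 293 and 105 peaks in 370 genes, had a ratio of 35.8% (28.4% to 44.9%), near that of their bins (37.7%). Slc2a12 had 19 and 6 peaks and the cystine transporter gene Slc7a11 had 18 and 3.

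Among the genes of liver metabolism, cytochrome P450 genes held 78 young and 51 old peaks in 25 and 20 of 99 genes (25.3% and 20.2%, beside 27.5% and 15.2% of all protein-coding genes), a ratio of 65.4% (45.0% to 94.3%) beside 58.5% in their bins. Cyp2c38 had 8 and 4 peaks, whereas Cyp2b23 had 7 and 0. The genes of conjugating enzymes (Ugt, Gst and Sult) held 56 and 27 peaks, with 14 and 2 in Sult2a3 and 8 and 3 in Sult2a6. Carboxylesterase genes held 2 and 1 peaks, of which Ces5a had 1 at each age and Ces2f had 1 young peak. Major urinary protein genes held 4 and 2, with 2 and 0 in Mup18 and 2 and 1 in Mup6.

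The list of 61 genes for liver lipid handling and plasma proteins was sparse in peaks, 7.89 per Mb in young and 2.19 in old liver, and 0.63 and 0.62 times its own bins. A peak lay in 11 of these genes in young and in 3 in old liver (18.03% and 4.92%, against 27.5% and 15.2% of all protein-coding genes). Cpt1a, the rate-limiting enzyme of mitochondrial fatty acid import, had 4 young and 2 old peaks and was the only member reached at both ages. Acacb, an acetyl-CoA carboxylase, had 3 young peaks, Hmgcs1 of cholesterol synthesis had 2, and Abca1, Abcb11, Abcg5, Nr1i2 and Ppara had 1 each, and none of these 7 genes had an old peak. The sterol regulator Srebf2 had 2 peaks and the triglyceride enzyme Dgat1 had 1 in the old list only. No peak midpoint lay between the start and end of Apob, Apoc1 or Apoa1 at either age, and the sequence beside these genes was not counted. The study draws regions at Apob and Apoc1 as examples that carry both marks and are bound by Setdb1 and Kap1 in young liver. Peaks of those regions that lie outside the genes are not part of this count. Of the genes in regions drawn as tracks in the study, Gm14412 had 3 young and 5 old peaks, Zfp180 had 2 at each age, Zfp316 and Rnpepl1 had 1 young peak each, and Gm49692 had 20 and 10.

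Of 32 genes that encode Kap1 partners and other H3K9 methylation factors, 8 were reached in young and 5 in old liver (25% and 15.6%, beside 27.5% and 15.2% of all protein-coding genes), with 15 and 5 peaks, 0.62 and 0.50 times the number of their bins. The DNA methyltransferase gene Dnmt3a had 4 and 1, Hdac3 had the 4 and 0 given above, and the chromatin remodeler gene Smarcad1 had 2 and 0. Atf7ip2, a relative of the Setdb1 cofactor Atf7ip, and the methyltransferase gene Suv39h2 had 1 at each age. Atf7ip itself, Ehmt1 and Zfp809, a zinc finger gene whose product silences retroviruses through Kap1, had 1 young peak each, and Cbx5 (HP1 alpha) and Dnmt1 had 1 old peak each.

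Families with few peaks included the 68 histone genes on these chromosomes, none of which held a peak at either age, cytosolic ribosomal protein genes, with 4 young peaks (Rpl5 and Rpl7 among them) and 0 old in 79 genes, and keratin genes, with 8 young and 2 old peaks in 110 genes (Krt20 and Krt28 had 1 young peak each). The 39 Hox genes had 3 young and 5 old peaks. Hoxc4 had 2 and 4 of these and Hoxc5 had 1 young peak. The histone genes cover only 0.113 Mb, in which their bins would give 0.80 young and 0.70 old peaks, so that a density different from that of the surroundings was not detectable. Keratin, ribosomal protein and Hox genes are short too, with 0.457, 0.359 and 0.285 Mb. Reached were 7.27% and 1.82% of keratin, 5.06% and 0% of ribosomal protein and 5.13% and 5.13% of Hox genes. For all protein-coding genes it was 27.5% and 15.2%. Keratin genes held 1.23 and 1.64 times the number of their bins. Ribosomal protein genes held 0.76 and 0 times and Hox genes 0.67 and 1.70 times.

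**Figure D4:**
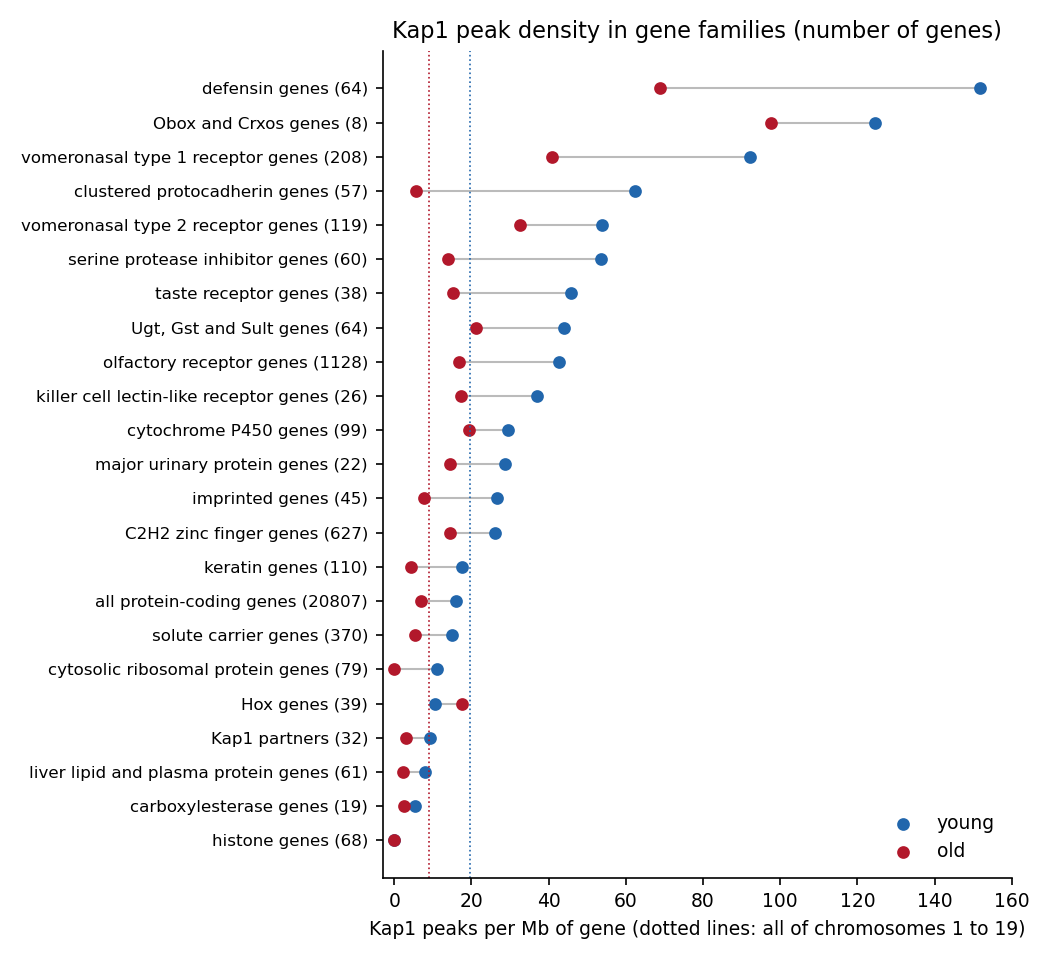
Kap1 peaks per Mb of gene (x axis) in young (blue) and old liver (red) for each gene family, with its number of genes in parentheses, ordered by the young density. Dotted lines give the density over chromosomes 1 to 19 (19.7 and 8.93 per Mb). Defensin genes are densest in young liver (152 per Mb) and the Obox and Crxos genes in old liver (97.5 per Mb), and Hox genes alone have a higher old than young density, on 3 young and 5 old peaks.

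*3′ exons against start sites.* The last exon and 1 kb on either side of the start site were compared in genes with more than 1 exon, for the transcript with the longest coding sequence. In 620 zinc finger genes the last exons held 79 young peaks, 45.2 per Mb (35.8 to 56.3), and 43 old peaks, 24.6 per Mb (17.8 to 33.1). Their start sites held 30 and 18 peaks, 24.5 per Mb (16.5 to 34.9) and 14.7 per Mb (8.70 to 23.2). The density in last exons was thus 1.85 times that at start sites in young liver (1.20 to 2.92) and 1.68 times in old liver (0.95 to 3.09). In 18830 other genes it was 1.19 times (1.08 to 1.32) and 1.47 times (1.27 to 1.70). The intervals of zinc finger and other genes overlapped at both ages, and the difference between these classes of genes was not tested. With start-site windows of 5 kb on either side the figures were 1.24 and 1.11 for zinc finger genes and 1.31 and 1.45 for other genes, so that the order of these classes in young and in old liver depended on the window. Outside the densest 5% of young bins, an alternative chosen after seeing the data, the figures for zinc finger genes were 2.59 in young liver, on 31 last-exon and 8 start-site peaks, and 8.02 in old liver, on 12 and 1.

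Set against their own bins, the last exons of zinc finger genes held 1.23 times the number of young and 1.24 times the number of old peaks that an even spread would give, and their start sites 0.59 and 0.66 times. In other genes the last exons held 1.28 and 1.40 times, and the start sites 1.07 and 0.94 times. The coding part of the last exon held 1.40 and 1.51 times in zinc finger genes and 2.01 and 2.39 times in other genes. The start sites of zinc finger genes thus lay farther from an even spread, as a ratio, than their last exons. In the 306 of these genes with 10 or more finger patterns, the last exons held 1.19 times the even number in young and 0.96 times in old liver, and the coding part of the last exon 1.14 and 1.01 times. The part after the stop codon in these 306 genes held 1.26 and 0.90 times the even number. In other genes the coding part of the last exon was denser than the part after the stop codon, with 51.5 against 21.8 young and 28.0 against 10.1 old peaks per Mb. In zinc finger genes the values were 63.4 against 33.3 and 37.2 against 15.7, with intervals that overlapped at both ages. Internal exons were dense too, with 48.8 young and 21.5 old per Mb in zinc finger genes and 33.8 and 13.9 in others, whereas introns had 20.8 and 11.6, and 14.6 and 6.24. First exons held 57.1 young and 7.13 old per Mb in zinc finger genes, on 8 peaks and 1, and 42.1 and 14.98 per Mb in others. The coding part of the last exon was thus denser than introns in both classes of genes and at both ages, with intervals that did not overlap, whereas the old internal exons of zinc finger genes (10.7 to 38.4) overlapped their introns (10.1 to 13.2). Peaks had a higher GC content than sites every 50 kb, on average 47.0% in young and 46.6% in old liver against 41.9%, and the part of base composition in the exon densities was not tested.

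**Figure D5:**
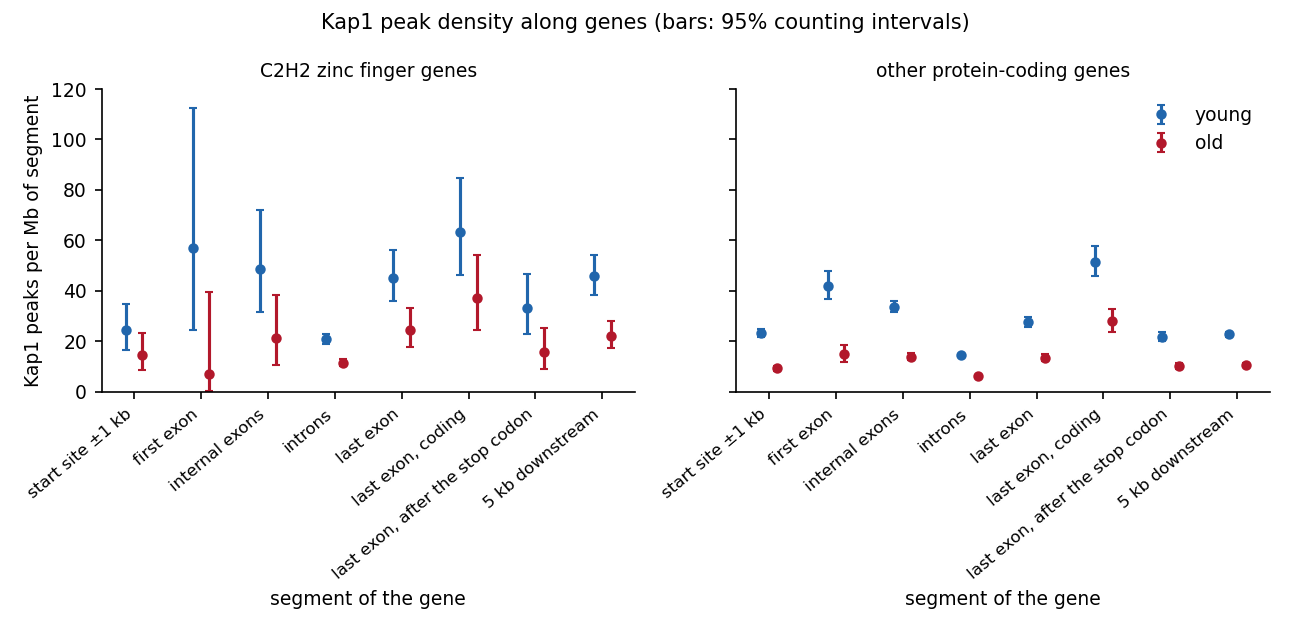
Kap1 peaks per Mb (y axis) in segments along genes (x axis) for 620 C2H2 zinc finger genes (left) and 18830 other protein-coding genes (right), young in blue and old in red, with 95% counting intervals. The coding part of the last exon has 63.4 young and 37.2 old peaks per Mb on the left and 51.5 and 28.0 on the right, above introns (20.8 and 11.6, and 14.6 and 6.24).

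A last-exon peak was found in 86 zinc finger genes, in 47 of them in young liver only, in 19 in old liver only and in 20 at both ages. These are 67 of 620 genes in young and 39 in old liver, beside 744 and 378 of the 18830 other genes. For the last exons of other genes the split between the ages is not given here. Over whole genes, 116 zinc finger genes were reached in young liver only, 40 in old liver only and 96 at both ages. Among all 20807 protein-coding genes these numbers were 3664, 1096 and 2068. Gm14443, a gene with 16 finger patterns, had 3 young and 2 old peaks in its last exon, the young ones 1686, 1363 and 677 bp wide. Zfp985 had 2 at each age, and the old peak printed above shared 137 bp with a young one. The gene 2010315B03Rik had 3 young and 1 old, the latter lying wholly inside a young peak. Sall2, a developmental regulator, had 3 young and 1 old, of which the old peak shared 132 bp with a young one. Fiz1 had 2 and 1 with 25 bp in common. Zfp180 had 1 young and 2 old, Zbtb7a, a repressor in blood cell development, had 2 and 1, Zfp648 and Gm14412 had 1 at each age, and the oncogene Plag1 had 2 young and no old.

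The codons of the linker peptide between C2H2 fingers, ACNGGNGANAANCC on either strand, were looked for in the peaks. These letters were in 64 young peaks (0.136%, 0.106% to 0.174%) and 41 old peaks (0.192%, 0.141% to 0.260%), and in 0.0446% of all 15972365 windows of 150 bp on chromosomes 1 to 19. Among peaks of 150 bp, which match the windows in length, the share was 0.0720% in young (0.0505% to 0.103%) and 0.115% in old liver (0.0749% to 0.175%). Of the peaks in last exons of zinc finger genes, 19 of 79 young and 10 of 43 old held them, as does the peak of 2010315B03Rik printed above. The share in other stretches of these exons was not counted. Nearly all Kap1 peaks lacked these letters at both ages, as did nearly all windows, so that their absence is not particular to the peaks.

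The letters TGCCGC, the site that Zfp57 recognizes when methylated and through which it brings Kap1 to imprinted regions, or their reverse complement, were in 1.81% of young (1.69% to 1.95%) and 1.60% of old peaks of 150 bp (1.43% to 1.79%), against 0.929% of the windows. This hexamer holds a CG, and the windows were not matched for base composition.

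The same bins were read in the other lists of the series. Setdb1 peaks in old liver were 27.8% as many as in young (27.2% to 28.3%) and H3K14ac peaks 107% (104% to 109%) over chromosomes 1 to 19. The bin with the most Kap1 peaks, around Zfp985, had 34 young and 23 old Setdb1 peaks and 118 and 137 H3K14ac peaks, while chr12:19000001-20000000 had 5 and 4, and 17 and 5. Across the 1279 bins with at least 10 young peaks of both Kap1 and Setdb1, the old to young ratios of the factors had a Spearman correlation of 0.10, and across 431 bins for Kap1 and H3K14ac 0.02. These are descriptions across bins, which share the livers of an age and are not replicates.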

How the data were processed

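Kap1 was profiled by ChIP-Seq in livers of 2 young and 2 old mice. Per the labels and the study's methods, the authors aligned reads to mm10 with BWA v0.7.12, removed duplicates with Picard v1.134, kept uniquely aligned reads with a phred score of at least 30, merged both livers per age and, with the input as control, ran PeakSeq (FDR 5%, q-value 0.05). PeakSeq sets its calling threshold segment by segment along a chromosome. The deposited lists give start and end of each peak, without height or score, so the depth per sample and per peak is unknown.

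Peaks on chromosomes 1 to 19 were assigned by midpoint to 1 Mb bins and to GENCODE vM21 basic gene models, and sequences were read from GRCm38 (RefSeq), with Python and numpy. Zinc finger genes have at least 3 matches of the C2H2 spacing in the encoded protein. Bins with at least 10 young peaks were compared with the overall ratio at 2-fold. Named were the 5 densest bins per list, the 6 lowest and 6 highest ratios among bins with at least 20 young peaks, up to 3 genes per bin, 2 genes per family, peak-holding members of the lists of Kap1 partners and of liver lipid and plasma protein genes, genes the study draws with coordinates, and the 10 zinc finger genes with the most last-exon peaks. Some genes that this rule names are not reported here. Intervals are Wilson (shares), exact Poisson (densities) or exact conditional binomial (ratios), at 95%. The counting code was tested on simulated lists and against bedtools. Of the listed symbols, Suv39h1 lies on chromosome X, and Tasor and Tf did not match a symbol of these gene models, and these were left out. Members, families and lists were chosen with earlier results of these data known. With 1 pooled list per age no test was made and no liver could be left out.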

Additional observations from a re-analysis of the deposited data

Results flagged for a closer look

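The peaks of the sex chromosomes lie outside the comparison above. Chromosome X held 1616 young and 667 old Kap1 peaks, so that the old count was 41.3% of the young (37.7% to 45.2%), and chromosome Y held 215 and 84, or 39.1% (29.99% to 50.5%). They were singled out as signal in data that the report does not use. The interval of chromosome Y includes the ratio of 45.4% over chromosomes 1 to 19, that of chromosome X lies just below it, and no test between them was made.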

How the results depend on the processing

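No paired analysis was possible because the livers of an age were merged into 1 peak list, and for the same reason no liver could be left out. Of 73 values under alternatives, 42 stayed within the 95% counting interval of the reported value and 31 did not. Removing the densest 5% of young bins, choosing bins by the peaks of both lists and setting exons and start sites against their own bins were chosen after seeing the data.

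The overall ratio was 48.7% in base pairs, 44.0% for 150 bp peaks, 46.6% with peaks within 1000 bp merged, and 41.3% without the densest young bins. The share of peaks in the densest 5% of bins was 35.4% in young and 43.4% in old liver with 0.5 Mb bins, 26.6% and 32.9% with 2 Mb bins, 29.0% and 35.8% with bins shifted by 0.5 Mb, 27.9% and 37.1% with merged peaks, and 45.1% and 54.5% in base pairs. It was higher in old liver each time. Bins more than 2 times below the overall ratio were 39.4% with 0.5 Mb bins, 28.5% with 2 Mb bins, 31.5% with shifted bins, 34.2% with at least 20 young peaks and 31.9% with at least 15 peaks of both lists together. Those above it were 4.56% with 0.5 Mb bins, 5.01% with shifted bins, 2.85% with at least 20 young peaks and 13.7% with at least 15 peaks of both lists. Zinc finger genes with a peak were 41.6% in young and 27.0% in old liver when 5 kb on either side were included. Their ratio was 47.1% without the densest young bins and stayed above the overall ratio of 45.4% under all 7 alternatives. The density of last exons over start sites stayed above 1 in all 12 alternatives for zinc finger genes and all 12 for other genes. Without the densest young bins it was 8.02 for zinc finger genes in old liver, on 12 peaks in last exons and 1 at start sites. The linker codons were in 0.0998% of young and 0.136% of old peaks within 150 bp around the midpoint, and in 0.0948% and 0.138% of peaks outside zinc finger genes. The cause of these differences was not tested, beyond the fewer peaks, fewer bins or shorter stretches that the alternatives count by construction.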
